A study of Homo sapiens with 72 samples.

Results

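Spermidine (SPD) was given without bacteria to 3 human lower genital tract epithelial cell lines, and the transcriptome of the treated cells was compared with that of non-treated (NT) cells. The comparison holds 18 of the 72 libraries of the series, namely the 9 SPD libraries and the 9 NT libraries that were not exposed to Gardnerella vaginalis (noGV), chosen by their labels alone. The rest came from cells given putrescine (PUT) or spermine (SPM), or exposed to the bacterium (GV). Each line gave 3 SPD and 3 NT libraries: VK2/E6E7 (VK2) from the vagina, Ect/E6E7 (Ecto) from the ectocervix and End1/E6E7 (Endo) from the endocervix. SPD cells received 400 µM spermidine for 4 h and were kept for 24 h more without bacteria, and NT cells went through the same steps without a polyamine. All cells grew in serum-free keratinocyte medium, and both groups carry the papillomavirus E6 and E7 genes that immortalise these lines. Each tissue site is represented by a single immortalised line. No source states that replicates of a group were grown as separate cultures, and the p-values therefore measure only the spread between these libraries.

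Polyamines are small, positively charged amines that bind nucleic acids and are needed for growth. Cells make putrescine with ornithine decarboxylase and add aminopropyl groups to give spermidine and then spermine. They shed an excess by acetylation through spermidine/spermine N1-acetyltransferase (SAT1), by oxidation, which releases hydrogen peroxide and reactive aldehydes, and by blocking uptake through the antizymes. NRF2, encoded by NFE2L2, is the transcription factor that raises glutathione, thioredoxin, heme and quinone enzymes when its inhibitor KEAP1 is modified by reactive compounds.

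RNA was read from ribosome-depleted total RNA, and library totals ran from 24008930 to 42767996 estimated counts with a median of 31711818. Of 62266 genes, 18094 passed the filter on low counts and were tested. 1 library stood apart: Ecto SPD replicate 3 had the fewest counts and deviated from its line by 0.357 log2 CPM (root mean square), against 0.220 to 0.276 in the other 17. The numbers of genes that rose and fell, and the counts of the main gene lists, are therefore given with and without it. The 15 genes of squamous and simple epithelium were all read in every line, with levels, in counts scaled to a common library size (CPM), that summed to 13854 to 17058 CPM in Ecto, 28797 to 30343 CPM in Endo and 41157 to 44323 CPM in VK2 cells. The keratin KRT7, a marker of simple epithelium, was at 1261 to 1426 CPM in the endocervical line, and the basal squamous keratin KRT5 was at 12084 to 13126 CPM in the same libraries. Of the other simple-epithelium genes, KRT19 was highest in Endo as well, at 1814 to 1968 CPM. KRT8, KRT18 and EPCAM were highest in Ecto instead, at 1759 to 2262, 1285 to 1691 and 221 to 274 CPM. In Endo these were at 112 to 126, 192 to 210 and 109 to 125 CPM. Of the fibroblast markers 7 of 10 were under 1 CPM in all libraries, as were 9 of 11 leukocyte markers, including PTPRC, and 6 of 8 endothelial markers. Summed leukocyte markers were 50.2 to 51.4 CPM in NT and 57.7 to 74.3 CPM in SPD libraries of Ecto, 36.9 to 39.9 and 40.7 to 45.5 in Endo, and 70.3 to 76.1 and 78.9 to 85.8 in VK2 cells. Most of that sum was CD68, a lysosomal glycoprotein that epithelial cells also express, and CD68 itself rose (log2 fold change 0.23, SE 0.05). In bulk RNA, fewer cells of a kind and less RNA per cell cannot be told apart.

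Few genes were called with spermidine alone, and most of the called genes changed little. With the cell line as a block, 413 of 18094 genes (2.28%) passed an adjusted p under 0.05 (edgeR quasi-likelihood test, Benjamini-Hochberg adjustment), of which 172 rose (0.951% of the genes tested) and 241 fell (1.33%). HMOX1, GCLM, NQO1 and SAT1 were the genes called in every line by contrasts within lines, which came from a single fit of all 18 libraries. The median size of the change was 0.163 on the log2 scale among the 413, and 319 of them changed by less than 0.25. Only 4 reached a fold change of 2 (0.0221% of the genes tested) and none reached a log2 fold change of 2. Of the 4, HMOX1 was the abundant one. NEURL3 and the long non-coding RNA ENSG00000283549.1 had at most 34 counts in any library, and TNFRSF6B, a decoy receptor gene that overlaps a neighbouring gene, had no count in any Ecto library. These 3 fell, by 1.05, 1.6 and 1.44 on the log2 scale, and were named after their values were seen. Of the 413 genes, 410 had the same sign in all 3 lines, where 33.8% of all genes tested did. The SPD and NT libraries did not overlap in any line for 181 of them, where SPD was above NT in all 3 lines for 0.63% of all genes tested and below it for 0.713%. The test that picked the 413 used these same libraries and favours such genes. Shared signs and separate groups are therefore no further evidence for the calls.

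These counts depended on single libraries. Without Ecto SPD replicate 3, 617 genes rose and 843 fell, all 413 genes were still called, and 6 genes reached a fold change of 2. That last number was 2 without Ecto NT replicate 1 or Endo SPD replicate 1. Leaving out any other library gave 88 to 154 rises and 161 to 248 falls. The number that rose fell by more than 1.5 times without Ecto NT replicate 1 (96) or 2 (112), Ecto SPD replicate 1 (112), Endo NT replicate 1 (102) or 2 (103), Endo SPD replicate 1 (97) or 2 (114), VK2 NT replicate 2 (101) or 3 (104), and VK2 SPD replicate 1 (88) or 3 (111). Without the whole Endo line 33 genes rose and 45 fell, and without VK2 13 rose and 15 fell. The genes HMOX1, GCLM, NQO1, SAT1, TXNRD1, ME1, UNKL, CTSL, TMEM80 and TEF passed the threshold under every one of the 31 alternative settings run.

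NRF2 target genes had the largest share of rising members among the lists with at least 10 genes tested. Of the 28 members tested 16 rose and none fell, against 0.951% of all genes that rose, and the median log2 fold change of the list was 0.22 beside 0.0012 over all genes. The median was 0.26 for VK2 cells, 0.22 for Ecto cells and 0.15 for Endo cells, and 22 of the 28 were positive in all 3 lines. NFE2L2 itself, which encodes NRF2, had a log2 fold change of -0.02 (adjusted p = 0.839, edgeR), and KEAP1 had 0.04 (adjusted p = 0.542, edgeR).

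HMOX1 (ENSG00000100292.18, chromosome 22, 35380361 to 35394214, plus strand, GRCh38) encodes heme oxygenase 1, which splits heme into biliverdin, carbon monoxide and iron. In Ecto cells it was at 13.6, 15.6 and 14.8 CPM in the NT libraries and at 42.8, 43.1 and 47.9 CPM in the SPD libraries. In Endo cells it was at 5.66, 6.19 and 5.80 CPM without and at 23.5, 25 and 20.3 CPM with spermidine. In VK2 cells it was at 9.12, 8.78 and 9.47 CPM without and at 22.9, 24.9 and 22.3 CPM with spermidine. Every SPD library lay above every NT library of any line. HMOX1 rose 3.09-fold over the 3 lines (log2 1.63, SE 0.07, 95% interval 1.48 to 1.77, edgeR adjusted p = 8.27e-12). The log2 change was 1.35 for VK2 cells, 1.61 for Ecto cells and 1.96 for Endo cells. The test of a difference between lines did not pass after adjustment (edgeR adjusted p = 0.588).

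GCLM (chromosome 1, 93885199 to 93909456, minus strand) encodes the modifier subunit of glutamate-cysteine ligase, the first enzyme of glutathione synthesis. It was at 39.8, 38.8 and 34.9 CPM in NT and 58.9, 57.3 and 53.4 CPM in SPD libraries of Ecto cells. It was at 18.5, 16.5 and 20.9 CPM in NT and 32.9, 32 and 32.8 CPM in SPD libraries of Endo cells, and at 21.2, 20.2 and 18.4 CPM in NT and 38.8, 33.8 and 38.4 CPM in SPD libraries of VK2 cells. The groups were apart in each line, and GCLM rose 1.68-fold (log2 0.75, SE 0.05, edgeR adjusted p = 2.32e-08). GCLC, the catalytic subunit of the same enzyme, rose less (log2 0.18, SE 0.04, edgeR adjusted p = 0.0123), and its Ecto libraries overlapped, at 55.7 to 59.8 CPM in NT and 53.7 to 62.6 CPM in SPD. SLC7A11, which brings in cystine for glutathione, had a log2 difference of 0.25 that did not pass (adjusted p = 0.256, edgeR): its SPD libraries were above NT in Endo and VK2 cells, while Ecto SPD replicate 3 was at 72.6 CPM beside 101 to 124 CPM in NT.

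NQO1 (chromosome 16, 69706996 to 69726668, minus strand), the quinone reductase, was at 81.1, 81.6 and 86.3 CPM in NT and at 106, 101 and 121 CPM in SPD libraries of Ecto cells. Its levels were 76.6, 81 and 77.3 CPM against 102, 103 and 102 CPM in Endo, and 107, 110 and 112 CPM against 154, 157 and 147 CPM in VK2 cells. The rise was 33.8% over the lines (log2 0.42, SE 0.03, edgeR adjusted p = 6.08e-08), with no overlap in any line.

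TXNRD1 (chromosome 12, 104215779 to 104350307, plus strand) encodes cytosolic thioredoxin reductase. It was at 207, 200 and 207 CPM in NT and 259, 247 and 218 CPM in SPD libraries of Ecto, at 99.5, 95.8 and 97.3 against 127, 120 and 122 CPM in Endo, and at 61.3, 63.6 and 66.2 against 91, 88.9 and 88.4 CPM in VK2 cells. ME1 (chromosome 6, 83210402 to 83431051, minus strand), the cytosolic malic enzyme that makes NADPH, was at 92.6, 93.2 and 86.9 against 104, 103 and 105 CPM in Ecto, 54.3, 51.1 and 55.8 against 66.2, 65.7 and 62.6 CPM in Endo, and 94, 89 and 90.6 against 122, 116 and 118 CPM in VK2 cells. Both were apart in every line and rose by 27.4% and 21.7% (log2 0.35, SE 0.04, and log2 0.28, SE 0.03, each with an edgeR adjusted p of 1.37e-05).

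**Figure D1:**
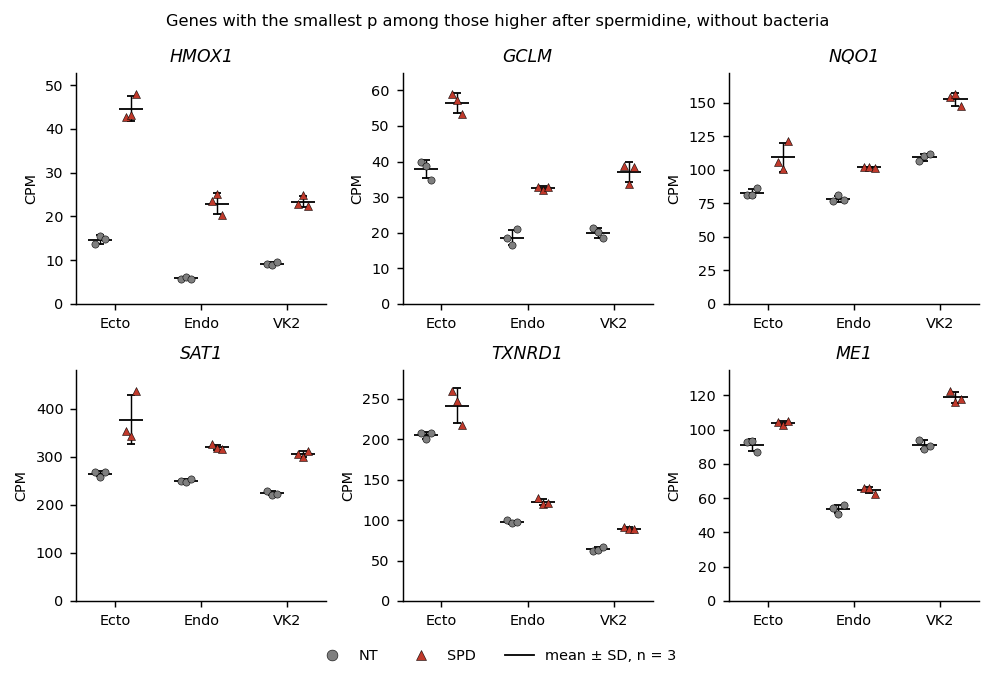
Level of HMOX1, GCLM, NQO1, SAT1, TXNRD1 and ME1 in each of the 18 libraries, in CPM from an axis that starts at 0, by cell line and pretreatment. Points are libraries and bars are the mean ± SD of 3. In all 6 genes and each line the 3 SPD points lie above the 3 NT points, and HMOX1 has the largest fold change of the 6, from 5.66 to 15.6 CPM in NT to 20.3 to 47.9 CPM in SPD libraries.

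Members of iron storage, NADPH supply and detoxification were among the others that rose. The ferritin chains FTH1 and FTL, which store iron, each rose with a log2 fold change of 0.28 (SE 0.04 and 0.05). FTH1 was at 4143 to 4646 CPM in NT and 5058 to 6584 CPM in SPD libraries of Ecto, 2667 to 2758 and 3046 to 3201 CPM in Endo, and 3931 to 4275 and 4710 to 5007 CPM in VK2 cells, with no overlap. Both ferritin genes have many processed pseudogene copies that could share reads, so their levels are less certain. TKT, an enzyme of the pentose phosphate pathway, rose by 0.16 on the log2 scale, and the epoxide hydrolase EPHX1 rose by 0.28. TRIM16L rose by 0.35, SLC48A1 by 0.17, and the exporter gene ABCC2 by 0.25. The aldo-keto reductases AKR1C1 and AKR1B10 rose by 0.27 and 0.49, but these belong to families of near-identical genes among which reads can be divided. Of the 16 members that rose, 10 did not overlap in any line, beside 181 of all 413 called genes. The 12 that did not pass ranged from -0.03 for the exporter ABCC3 to 0.25 for SLC7A11, with SRXN1 at 0.05, GSR at 0.05 and OSGIN1 at 0.01. The number of rising members was 21 without Ecto SPD replicate 3 and 14 to 16 without any other single library. It was 10 without the Endo line, 7 without VK2, and 6 without replicate 1 of every group, as without replicate 2.

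**Figure D2:**
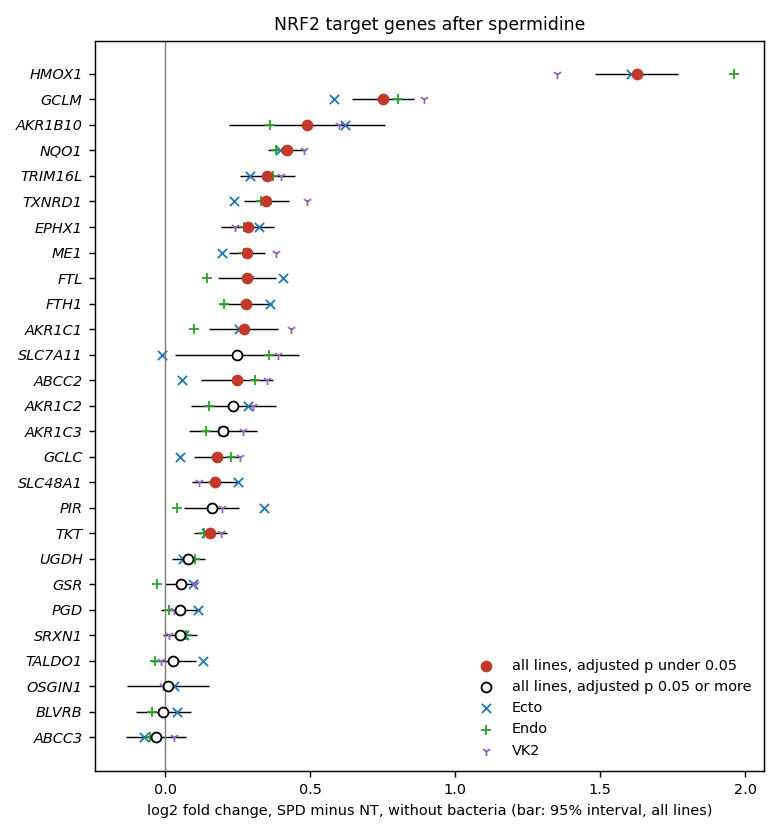
Log2 fold change, SPD over NT without bacteria, of 27 of the NRF2 target genes tested. The point and line are the estimate over all 3 lines with its 95% interval, and the smaller marks are the estimates in Ecto, Endo and VK2 cells. HMOX1 at 1.63 and GCLM at 0.75 stand to the right of the rest, 15 genes that rose are filled, and the members that did not pass lie between -0.03 and 0.25.

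The sequence that NRF2 binds, the antioxidant response element, was looked for near the starts of these genes because the members moved together. Its core was searched as TGACNNNGC on both strands in RefSeq promoters (GRCh38.p14, 250 bases before to 50 after the start). It was present in 13.6% of 27305 promoters, in 15.1% of those of genes tested, and in 5 of the 20 NRF2 list members that had an entry. Of the 11 rising members with an entry, GCLM, TXNRD1 and ME1 held it. HMOX1 had no entry. The matches are shown with the motif in capitals, written 5′ to 3′ along the gene's strand.
GCLM, chr1:93909445-93909474, minus strand, motif on the opposite strand: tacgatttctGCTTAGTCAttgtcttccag
TXNRD1, chr12:104215670-104215699, plus strand: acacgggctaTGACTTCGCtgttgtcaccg
TXNRD1, chr12:104215761-104215790, plus strand, motif on the opposite strand: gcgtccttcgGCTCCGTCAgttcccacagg
ME1, chr6:83431169-83431198, minus strand: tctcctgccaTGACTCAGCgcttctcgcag
ME1, chr6:83431021-83431050, minus strand, motif on the opposite strand: gctgcagtcaGCACCGTCAccccagcagca
The first ME1 match also contains TGACTCA, the site of AP-1 factors. Counted from the RefSeq start, the match of GCLM begins 34 bases before it, those of TXNRD1 99 and 8 bases before it, and the first of ME1 137 bases before it. For GCLM that start is not the outer end of the gene coordinates given above. A match describes the letters of this window and does not show that a factor was bound.

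Of 33 members tested in the 4 polyamine lists, 5 passed, where 2.28% of all genes did. They were SAT1 and AGMAT, which rose, and AMD1, AZIN1 and SMOX, which fell. SAT1 (chromosome X, 23783173 to 23786210, plus strand) encodes the acetyltransferase that marks spermidine and spermine for export or oxidation. It was at 268, 258 and 269 CPM in NT and 353, 343 and 436 CPM in SPD libraries of Ecto cells. It was at 249, 247 and 254 against 326, 318 and 316 CPM in Endo, and at 228, 220 and 223 against 306, 300 and 312 CPM in VK2 cells. The groups were apart in each line, and SAT1 rose by 35.5% (log2 0.44, SE 0.04, edgeR adjusted p = 4.21e-07).

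On the synthesis side, AMD1 (chromosome 6, 110874770 to 110898879, plus strand), the S-adenosylmethionine decarboxylase that supplies the aminopropyl groups, was at 131, 134 and 135 CPM in NT and 122, 122 and 111 CPM in SPD libraries of Ecto cells. Its levels were 112, 111 and 121 against 103, 102 and 104 CPM in Endo, and 128, 128 and 124 against 108, 99.5 and 106 CPM in VK2 cells. SPD libraries were the lower ones in every line, and AMD1 changed by -13% (log2 -0.20, SE 0.03, edgeR adjusted p = 4.89e-04). AZIN1, the antizyme inhibitor that protects ornithine decarboxylase, was at 144 to 145 CPM in NT and 111 to 132 CPM in SPD libraries of Ecto, 113 to 122 and 98.5 to 109 CPM in Endo, and 124 to 130 and 109 to 113 CPM in VK2 cells. It fell to the same degree (log2 -0.20, SE 0.03, edgeR adjusted p = 8.93e-04) with no overlap.

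The remaining 2 passed narrowly. SMOX, spermine oxidase, fell (log2 -0.17, SE 0.04, edgeR adjusted p = 0.0324), from 14.2 to 15.4 CPM in NT to 13 to 13.7 CPM in SPD libraries of Endo and from 13.7 to 14.9 CPM to 11.9 to 13.2 CPM in VK2 cells, while the Ecto groups overlapped near 3 CPM. AGMAT, agmatinase, rose (log2 0.14, SE 0.04, edgeR adjusted p = 0.0426). Among members that did not pass, ODC1, ornithine decarboxylase, had a log2 difference of 0.09 (adjusted p = 0.176, edgeR). It was at 215, 229 and 222 CPM in NT and 250, 260 and 268 CPM in SPD libraries of Ecto cells, and its groups overlapped in Endo and VK2 cells. By the contrast within Ecto cells ODC1 rose (log2 0.22, edgeR adjusted p = 0.0397). The spermidine and spermine synthases SRM and SMS were at 0.11 and 0.04, the antizymes OAZ1 and OAZ2 at 0.11 and 0.06, the lysosomal exporter ATP13A2 at -0.10 and its relative ATP13A3 at 0.04. None of the 10 transport genes and none of the 5 genes around eIF5A, whose hypusine is made from spermidine, passed, nor did any of the 10 genes of the methionine cycle. Lists this short would often hold no call where 2.28% of all genes were called. EIF5A was at 0.07, DHPS at 0.02 and DOHH at 0.03 on the log2 scale.

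Other genes that rose fell into small groups, to be read beside the 0.951% of all genes tested that rose. GPX2, a glutathione peroxidase, rose (log2 0.44, SE 0.07, edgeR adjusted p = 0.00108), from 15.9 to 16.6 CPM in NT to 19.7 to 20.9 CPM in SPD libraries of Endo and from 5.94 to 7.09 CPM to 9.40 to 11.2 CPM in VK2 cells. It was under 1 CPM in every Ecto library, and it was the 1 member called among 17 genes of peroxide and superoxide removal. Of 17 genes of aldehyde detoxification GSTM3, AKR1B1 and ALDH3A2, the fatty aldehyde dehydrogenase, rose by 0.21, 0.15 and 0.10. The aryl hydrocarbon receptor targets CYP1B1 and TIPARP rose by 0.34 and 0.12, of 10 tested. FECH, which puts iron into heme, and the transferrin receptor TFRC rose by 0.16 and 0.21, of 11 iron genes, and the desaturases FADS1 and FADS2 and the elongase ELOVL6 rose by 0.11 to 0.15, of 12 genes of fatty acid synthesis. NMRAL2P, a pseudogene, rose by 0.52 at 0.785 to 4.05 CPM.

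PTGS2, the inducible cyclooxygenase, was at 59.4, 48.8 and 47.4 CPM in NT and 85.9, 68.8 and 60.9 CPM in SPD libraries of Ecto, at 36.4, 32.5 and 39.7 against 40.8, 44.5 and 47 CPM in Endo, and at 116, 104 and 105 against 147, 140 and 154 CPM in VK2 cells. It rose 1.32-fold (log2 0.40, SE 0.06, edgeR adjusted p = 0.00215), without overlap. The tissue factor gene F3 rose by 0.17, also without overlap in any line, and SERPINB2, an inhibitor of plasminogen activators, rose by 0.17. Of 26 cytokine and chemokine genes CXCL16 rose by 0.17 and CSF3 by 0.77, the latter at 0 to 1.37 CPM, and CXCL8 was at -0.03, IL6 at 0.22 and CXCL1 at 0.42 without passing. The immediate early genes ZFP36, DUSP1 and IER3 rose by 0.13 to 0.16, of 27. No member passed in either direction of the lists of NF-kB feedback (17 tested), antimicrobial genes (13), heat shock chaperones (17) and unfolded protein response (12). The same held for metallothioneins (6), p53 targets (16) and BCL2 family genes (13). With 2.28% of all genes tested called, such short lists would often hold no call.

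Some genes of DNA replication and of glycolysis rose by small amounts. RRM2, the small subunit of ribonucleotide reductase, rose by 0.18, the helicase subunits MCM5, MCM6 and MCM3 by 0.16, 0.14 and 0.11, and the sliding clamp PCNA by 0.13. These are 5 of 32 members (median 0.05), against 0.951% of all genes that rose. Genes of mitosis on the same list did not pass: MKI67 was at -0.05, CCNB1 at -0.02 and AURKB at -0.02. The count was 11 without Ecto SPD replicate 3, 3 without either of Ecto NT replicates 1 and 2, Endo SPD replicate 1, or VK2 NT replicate 1 or 2, 2 without Endo NT replicate 1 or VK2 SPD replicate 1, 0 without the Endo line, 1 without VK2, and 0 without replicate 1 or replicate 2 of every group. Of 23 hypoxia and glycolysis genes CA9, LDHA, ADM and BNIP3 rose by 0.12 to 0.26. Cathepsin L, encoded by CTSL, rose by 0.22 (SE 0.03, edgeR adjusted p = 2.03e-04) and was apart in every line, the only one of 25 lysosomal genes to pass. TXNIP, which binds thioredoxin, rose by 0.21 and its groups overlapped in Endo and VK2 cells.

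Of 16 circadian genes 6 fell, none rose and 10 did not pass, against 1.33% of all genes that fell, with a list median of -0.17. DBP (chromosome 19, 48630030 to 48637379, minus strand), a transcription factor of the clock's output, was at 3.59, 3.32 and 2.93 CPM in NT and 2.03, 1.77 and 2.53 CPM in SPD libraries of Ecto, at 19.8, 19.8 and 17.1 against 12.8, 13.3 and 13.4 CPM in Endo, and at 30.2, 28 and 26 against 21.7, 22.9 and 22.4 CPM in VK2 cells. Every SPD library was below every NT library of its line, and DBP changed by -27.3% (log2 -0.46, SE 0.06, edgeR adjusted p = 9.95e-05). TEF (chromosome 22, 41367333 to 41399326, plus strand), a factor of the same family, was at 4.85 to 5.17 CPM in NT and 3.31 to 3.69 CPM in SPD libraries of Ecto, 28.6 to 30.6 and 23.3 to 24.3 CPM in Endo, and 22.5 to 25.6 and 18.4 to 21.2 CPM in VK2 cells. It changed by -22.2% (log2 -0.36, SE 0.04, edgeR adjusted p = 6.43e-05) with no overlap.

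PER1, a repressor in the clock loop, fell by 0.18, CIART by 0.26, the heme-binding repressor NR1D1 by 0.14 and NPAS2 by 0.12 on the log2 scale. Among the activators of the loop, BMAL1 at 0.01 and CLOCK at 0.00 did not pass. Nor did PER2 at -0.20, PER3 at -0.27 and CRY1 at -0.03. The clock's activators bind the E-box CACGTG, whose letters read the same on both strands. It was in 7.43% of all promoters, in 9.87% of those of genes tested and in 5 of the 16 circadian ones. Among the latter were 3 of the 6 that fell: CIART, with 3 matches, and TEF and PER1, which are shown with the E-box in capitals.
TEF, chr22:41367248-41367277, plus strand: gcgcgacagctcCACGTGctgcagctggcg
PER1, chr17:8152560-8152589, minus strand: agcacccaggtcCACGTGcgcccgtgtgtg
Without the Endo line 2 circadian genes fell, as without the VK2 line, and 9 fell without Ecto SPD replicate 3. Without replicate 1 or 2 of every group 1 and 3 fell.

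**Figure D3:**
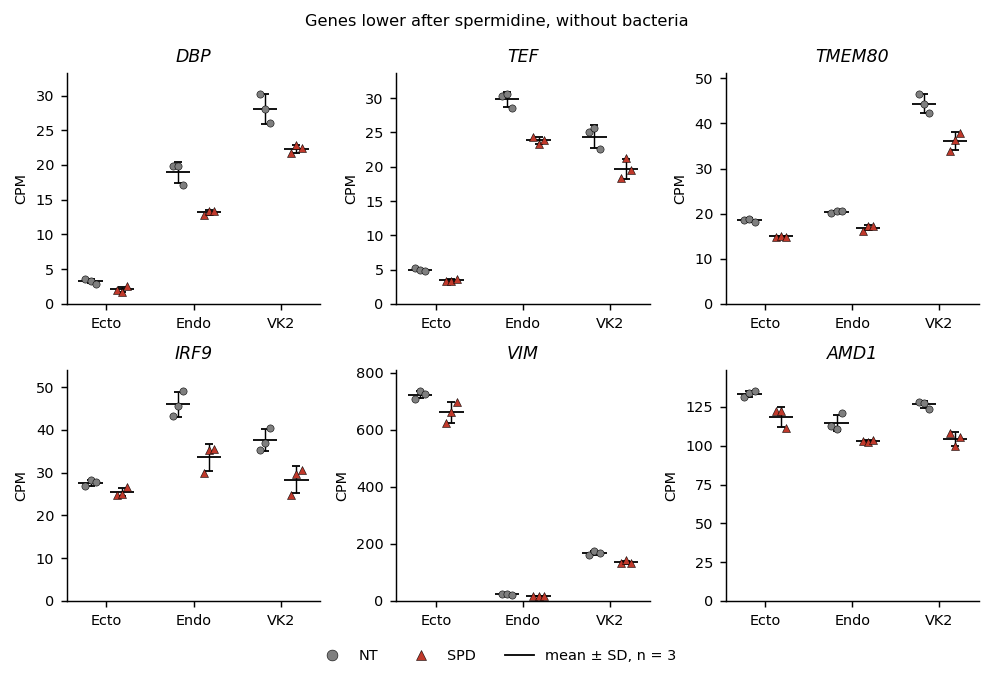
Level of DBP, TEF, TMEM80, IRF9, VIM and AMD1 in each of the 18 libraries, in CPM from an axis that starts at 0, by cell line and pretreatment. Points are libraries and bars are the mean ± SD of 3. In all 6 genes and each line the SPD points lie below the NT points, and for VIM the lines are farther apart than the groups, with 710 to 736 CPM in Ecto and 21.4 to 23.7 CPM in Endo NT libraries.

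Of 27 interferon-stimulated genes tested 9 fell, none rose and 18 did not pass (median -0.17), against 1.33% of all genes that fell. IRF9, the DNA-binding part of the interferon-stimulated factor, was at 26.8, 28.2 and 27.8 CPM in NT and 24.9, 25.1 and 26.6 CPM in SPD libraries of Ecto, at 43.2, 45.6 and 49.0 against 29.8, 35.2 and 35.6 CPM in Endo, and at 35.3, 37 and 40.4 against 24.7, 29.7 and 30.6 CPM in VK2 cells. The groups were apart in every line, narrowly so in Ecto, and IRF9 changed by -20.6% (log2 -0.33, SE 0.06, edgeR adjusted p = 0.00239). HERC5, RIGI, IFIT1, IFIT2, OAS2, OASL, RSAD2 and ISG15, which act against viral RNA or protein, fell by 0.14 to 0.27. IRF7 at 0.03 and BST2 at 0.02 did not pass. The 9 had the same sign in each line, with 4 of them apart in all 3, beside 410 and 181 of all 413 called genes. No member fell without the Endo line and 1 fell without VK2, and leaving out Endo SPD replicate 1 or VK2 SPD replicate 1 gave 6. The count was 13 without Ecto SPD replicate 3, 14 without the Ecto line, and 1 without replicate 1 or replicate 2 of every group. The interferon-stimulated response element, searched on both strands as TTTC and TTTC with any 2 bases between them, was in 3.65% of all promoters, in 2.87% of those of genes tested and in 12 of the 20 list members with an entry. Of the 6 that fell and had an entry, HERC5, ISG15 and IFIT1 held it, and 9 members that did not pass held it too. 2 windows are shown with the element in capitals.
ISG15, chr1:1013380-1013409, plus strand, element on the opposite strand: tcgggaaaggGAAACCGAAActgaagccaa
IFIT1, chr10:89392510-89392539, plus strand: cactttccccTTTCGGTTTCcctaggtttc

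Of 29 targets of ATF4, the factor of the amino acid response, 8 fell and none rose (median -0.10), against 1.33% of all genes that fell. They were the glycine transporter SLC6A9 (-0.21), the glutathione-degrading enzyme CHAC1 (-0.19), the secreted stress marker GDF15 (-0.23), PCK2 (-0.15), SESN2 (-0.15), TRIB3 (-0.15), STC2 (-0.13) and SHMT2 (-0.11), each as a log2 fold change. CHAC1 was at 67.7 to 72 CPM in NT and 60.3 to 64.8 CPM in SPD libraries of Endo and at 47.8 to 49.9 and 40.7 to 46.7 CPM in VK2 cells, and its Ecto groups overlapped. ATF4 itself was at 0.01, ASNS at -0.05 and DDIT3 at -0.17 without passing. Of the 8, 1 was apart in all 3 lines, beside 181 of all 413 called genes. The count was 15 without Ecto SPD replicate 3, 2 without the Endo line, and 0 without VK2 or without replicate 1 or replicate 2 of every group. By DESeq2 it was 14. The response element of these genes was searched on both strands as TGATGNAA. It was in 3.67% of all promoters, in 1.76% of those of genes tested and in 4 of the 25 list members with an entry. Of the 7 that fell and had an entry, CHAC1 was the 1 that held it.

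Of 24 genes of the extracellular matrix and its receptors 8 fell and none rose (median -0.10), against 1.33% of all genes that fell. COL7A1, whose product anchors the basement membrane, was at 612 to 632 CPM in NT and 544 to 607 CPM in SPD libraries of Ecto, 732 to 787 and 671 to 691 CPM in Endo, and 301 to 316 and 263 to 279 CPM in VK2 cells. It was apart in each line and fell by 0.17 on the log2 scale (SE 0.03, edgeR adjusted p = 0.0011). The integrin chains ITGA3 and ITGB4 fell by 0.15 and 0.14, COL4A2 by 0.15, COL17A1 by 0.14, LAMA5 and TNC by 0.19 each, and fibronectin, FN1, by 0.30. FN1 was at 3547 to 3611 CPM in NT and at 3034, 3058 and 1915 CPM in SPD libraries of Ecto, the lowest being replicate 3. In Endo and VK2 cells its SPD libraries were below NT as well, at 3115 to 3432 against 3765 to 4074 CPM and at 8258 to 8530 against 9062 to 10034 CPM. The receptor kinase AXL fell by 0.27 and vimentin, VIM, by 0.26 (SE 0.04, edgeR adjusted p = 7.48e-04), the latter apart in every line. TIMP2 and MMP14 fell by 0.13 and 0.11. SNAI1, of the epithelial-mesenchymal factors, rose by 0.35, and ZEB1, SNAI2 and TWIST1 did not pass. The matrix count was 11 without Ecto SPD replicate 3, 2 without the Endo line, and 0 without VK2 or without replicate 1 or replicate 2 of every group.

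TMEM80, which encodes a transmembrane protein, had the smallest p of the genes that fell. It was at 18.7, 18.9 and 18.2 CPM in NT and 14.9, 15.2 and 14.9 CPM in SPD libraries of Ecto, 20.1, 20.6 and 20.6 against 16.3, 17.2 and 17.3 CPM in Endo, and 46.5, 44.3 and 42.3 against 34, 36.4 and 37.8 CPM in VK2 cells, a change of -18.5% (log2 -0.29, SE 0.03, edgeR adjusted p = 6.60e-06). UNKL, a zinc finger gene, rose as evenly (log2 0.28, SE 0.03, edgeR adjusted p = 6.85e-05). Apart from DBP, the largest falls among genes whose mean was 1 log2 CPM or more included those of NOXA1 (-0.49), a subunit that activates the NADPH oxidase NOX1, L3MBTL2-AS1 (-0.43), TCP11L2, ADAMTS7 and MEGF6 (-0.42 each), TH (-0.41), FOXA2 (-0.39) and BAALC-AS1 (-0.38). For the 2 antisense genes, how the counting used strand was not given in the sources used here, so reads of the partner gene may be included. FOXA2 was near 0 in Ecto cells.

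Large parts of the transcriptome gave no call. None of 82 cytosolic ribosomal protein genes, 76 nuclear respiratory chain genes, 46 histone genes, 28 genes of squamous differentiation, 20 junction genes or 13 Notch genes passed in either direction. With 2.28% of all genes tested called, lists of these sizes would hold few calls in any case. Their median log2 fold changes over all lines lay between -0.07 and 0.04. In Ecto cells the medians were 0.14 for ribosomal protein and respiratory chain genes, 0.12 for histone and 0.15 for squamous genes. Those of junction and Notch genes were -0.04 and -0.06 there, beside 0.0027 over all genes. In data simulated at these depths and spreads, the same test found 46% of genes changed by 0.2 on the log2 scale and 96% of those changed by 0.4, so small changes can be missed.

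**Figure D4:**
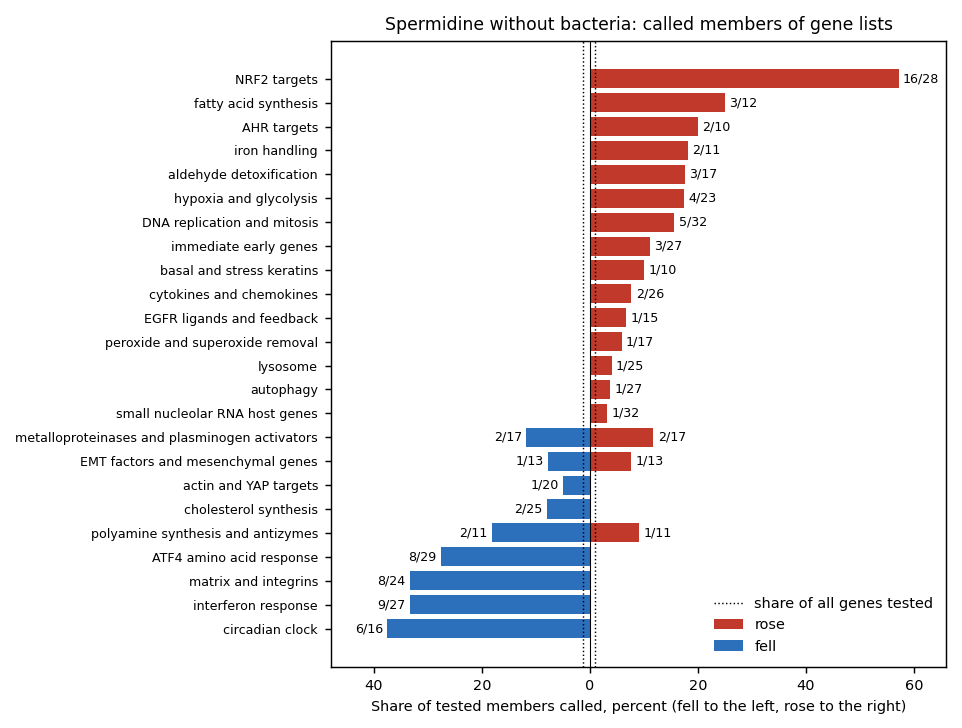
Percent of the tested members of each gene list that rose (right) or fell (left) with spermidine at an adjusted p under 0.05, for lists with at least 10 members tested and at least 1 called. The dotted lines mark the share over all genes tested, 0.951% up and 1.33% down. NRF2 targets reach 57.1% up, and the circadian, matrix and interferon lists reach 37.5%, 33.3% and 33.3% down.

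Tested within each line, 51 genes passed in Ecto (0.282% of those tested), 31 (0.171%) in VK2 and 9 (0.0497%) in the Endo line. The 9 in Endo were HMOX1, GCLM, NQO1, TXNRD1, ME1 and SAT1, which rose, and DBP, VIM and IRF9, which fell. In VK2 cells GPX2 (log2 0.61), AMD1, IRF9, VIM, TEF and TMEM80 passed as well. In Ecto cells CTSL, FTL, ITGA3, AXL and ODC1 were among those called. No gene differed between lines in its response (0 of 18094 at an adjusted p under 0.05 by edgeR, 882 at an unadjusted p under 0.05, which is 4.87%, and 11 by DESeq2), so a gene called in a single line is not shown to be particular to it. The nuclear envelope gene SYNE3 had the smallest p for a difference, with log2 changes of -0.73, -0.18 and 0.05 for Ecto, VK2 and Endo cells (edgeR adjusted p = 0.288). Without Ecto SPD replicate 3, 238 genes passed in the VK2, 188 in the Ecto and 172 in the Endo line, and 2 differed between lines. Leaving out single libraries of the line itself gave as few as 11 in Ecto (without NT replicate 1 or 2), 2 in Endo (without NT replicate 1, SPD replicate 1 or SPD replicate 3) and 12 in VK2 cells (without SPD replicate 1).

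Spermine, which has another aminopropyl group, was given at the same dose and for the same time, so its response can be compared with that of spermidine. Both comparisons with NT share the NT libraries, and the values are therefore set side by side and the difference between compounds was tested directly, over 36 libraries without bacteria and in the same SPD libraries that gave the results above. SPD and SPM libraries differed in 6674 of 19084 genes (35%). Of the 413 genes changed by spermidine 295 differed between the compounds. Over all genes 18.1% were higher and 16.8% lower with SPD. Among the 172 that rose, the level was higher with SPD for 47, lower for 78 and not called for 47. Among the 241 that fell, it was lower with SPD for 32, higher for 138 and not called for 71.

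HMOX1 differed between the compounds in each line, and not in the same direction. On a scale common to all 72 libraries it was at 46.8 ± 3.2 CPM with SPD and 20.3 ± 0.12 CPM with SPM in Ecto (SD, n = 3), 23.9 ± 2.5 and 17.8 ± 1.6 CPM in Endo, and 24.5 ± 1.4 and 28.8 ± 1.4 CPM in VK2 cells, with NT at 15.4, 6.17 and 9.57 CPM. Libraries of the compounds did not overlap in any line, and SPD was the higher in Ecto and Endo and the lower in VK2 cells. The log2 difference, SPD minus SPM, was 1.19 in Ecto cells (SE 0.07, edgeR adjusted p = 7.61e-15), 0.42 in Endo (adjusted p = 3.20e-04) and -0.24 in VK2 cells (adjusted p = 0.0163). Whether these differences differ between lines was not tested.

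For other genes the compounds were close or far apart in the mean over the 3 lines. GCLM differed by -0.05 on the log2 scale (95% interval -0.14 to 0.04, edgeR adjusted p = 0.412) and SAT1 by -0.02 (interval -0.08 to 0.04, adjusted p = 0.652). Within VK2 cells both genes were lower with SPD, without overlap. On the scale of all 72 libraries GCLM was at 35.3 to 40.8 CPM with SPD and 43.5 to 46.4 CPM with SPM there. SAT1 was at 315 to 325 and 357 to 369 CPM. In Endo GCLM was also lower with SPD, at 33.3 to 34.4 against 34.6 to 38.1 CPM, while SAT1 overlapped. Ecto means were higher with SPD for both genes, with overlap. Differences between lines were not tested. The SPD level of GPX2 was above that with SPM by 1.20 (edgeR adjusted p = 1.72e-05), and that of TXNIP was below it by 1.65 (SPD minus SPM -1.65, adjusted p = 7.54e-16), where TXNIP was 0.21 above NT with SPD and 1.86 above NT with SPM. The ATF4 targets GDF15, STC2, CHAC1 and TRIB3 were higher with SPD than with SPM, by 1.47, 0.89, 0.76 and 0.76 on the log2 scale (edgeR adjusted p at most 1.82e-16). DBP and TEF differed in the same sense, by 0.74 and 0.50, and AMD1 by 0.36. All 8 ATF4 targets that fell, 13 of the 16 NRF2 targets that rose and 7 of the 9 interferon genes that fell differed between the compounds, beside the 295 of all 413 called genes given above.

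Putrescine, the diamine without an aminopropyl group, was given at 4 mM, so its values stand beside those of 400 µM spermidine without a comparison. Over NT, HMOX1 was at 0.40 with putrescine and 1.63 with spermidine on the log2 scale, GCLM at 0.25 and 0.75, NQO1 at 0.08 and 0.42, SAT1 at 0.74 and 0.44, AMD1 at 0.52 and -0.20, AZIN1 at -1.01 and -0.20, IRF9 at -1.07 and -0.33, and PTGS2 at -0.19 and 0.40.

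**Figure D5:**
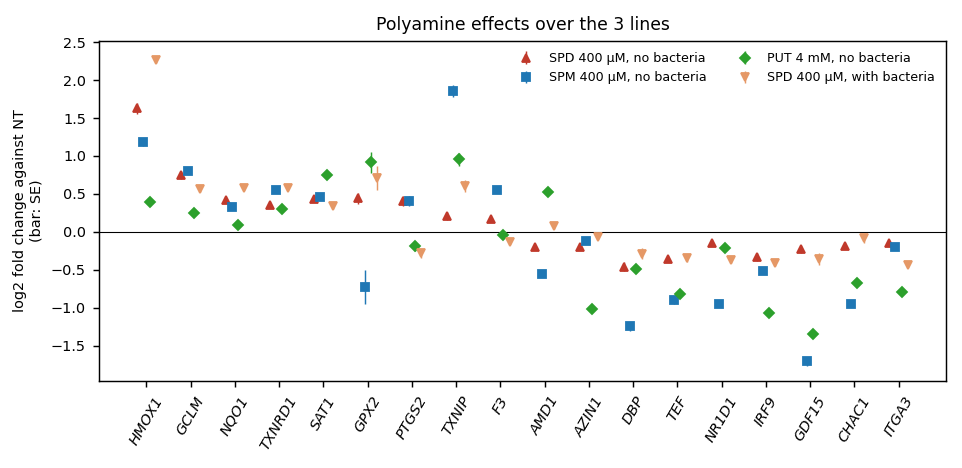
Log2 fold change over NT for 18 of the genes named here, with spermidine, spermine and putrescine without bacteria and with spermidine in the presence of bacteria, each against the NT libraries of the same exposure. Points are estimates over the 3 lines and bars are ± SE. The spermidine and spermine points lie close together for GCLM and SAT1 and apart for HMOX1, TXNIP and GPX2. Putrescine was at another dose.

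With bacteria present, spermidine was compared with NT cells exposed to the same bacteria, which uses other libraries and other controls. There 4857 of 19635 genes (24.7%) passed, with 11.3% that rose and 13.5% that fell. Of the 172 genes that rose with spermidine alone, 133 had the same sign with bacteria and 94 rose again, and of the 241 that fell 218 had the same sign and 144 fell again. Over all 18094 genes tested in both settings 57% had the same sign. The 238 genes called in the same direction are 57.6% of the calls without bacteria and 5.01% of those with them. All 16 NRF2 targets, the 9 interferon genes, the 8 matrix genes and the 5 replication genes were again called in the same direction, as were 5 of the 6 circadian genes and 4 of the 8 ATF4 targets, while none of the 4 hypoxia genes was.

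HMOX1 responded more strongly with bacteria in the mean over the 3 lines. On the scale of all 72 libraries it was at 20.5 ± 1.4 CPM in NT and 66.6 ± 5.6 CPM in SPD libraries with bacteria in Ecto (SD, n = 3), 34.3 ± 2.0 and 181 ± 14 CPM in Endo, and 15.4 ± 1.7 and 99.9 ± 8.6 CPM in VK2 cells. Without bacteria, NT and SPD were at 15.4 and 46.8 CPM in Ecto, 6.17 and 23.9 CPM in Endo, and 9.57 and 24.5 CPM in VK2 cells. The fold change was thus nearly the same in both settings in Ecto and grew most in VK2 cells. Over the lines the log2 change was 2.27 with bacteria, and the interaction was 0.63 (edgeR adjusted p = 1.30e-06). Whether the interaction differs between lines was not tested. The interaction passed for 1636 of 19635 genes (8.33%) and shares the SPD and NT libraries without bacteria with the results above. It was negative for PTGS2, which was 0.40 above NT without and -0.29 with bacteria, and for F3, which was 0.17 above NT without and -0.13 with them.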

How the data were processed

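The authors made sequencing libraries from total RNA with the CORALL kit after ribosomal depletion, and quantified transcripts with Salmon against annotation release 44 (GRCh38.p13), with tximeta for gene-level summaries. Values in the deposited table are these estimated counts by gene, whole numbers that were not normalized. Whether molecular identifiers were used, and the strand setting, are not given in the sources used here.

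The 18 columns were taken by their labels, with no column left unmatched. The tests were run in R 4.3.3 with edgeR 4.0.16 (normalization by TMM, filterByExpr by group, robust quasi-likelihood fit, two-sided, Benjamini-Hochberg adjustment over all 18094 genes tested, threshold 0.05), with the cell line as an additive term, and within lines from 6 group coefficients. The difference between lines was tested on both interaction terms together. SPD against SPM used the 36 libraries without bacteria, and SPD with bacteria and its interaction used the 36 NT and SPD libraries. The common biological coefficient of variation was 0.0655 with 14 residual degrees of freedom. CPM values use TMM-scaled totals. Counting error adds to the replicate spread, and its share is larger for genes at lower counts, such as DBP and TEF in Ecto cells. Replicates of a group differed by more than counting (chi-square per degree of freedom 2.34 to 38.5 over 18 pairs), so none was counted as a copy. The study's fold change of 2 and log2 fold change of 2 were applied as well.

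Named were all tested polyamine genes, the 10 largest positive and negative changes among called genes whose mean was 1 log2 CPM or more, the 10 smallest p, up to 4 called members per list, the 5 smallest p per line, and the 5 smallest p among called genes for the interaction and for SPD against SPM, without sex-linked genes that tell a person apart. The rule allowed for the 10 smallest p of the difference between lines too, but none passed. Further members are named from the lists as examples. A few genes that the rule names are not reported here. The members of the comparison and the 50 lists were chosen with earlier results of these data known. Alternatives were DESeq2 1.42.0, its size factors in edgeR, limma-voom (limma 3.58.1), no filter, a replicate block, other fits and leaving out libraries, replicates or lines. On simulated counts for 17817 genes, 46%, 96%, 100% and 100% of genes changed by 0.2, 0.4, 0.8 and 1.6 on the log2 scale over all lines were found, and 3.91% of calls were false. For a change of 0.8 or 1.6 in VK2 cells only, the test between lines found 88% and 100%, and 2.08% of its calls were false. Changed genes were drawn above 1 log2 CPM and libraries were simulated as independent. These rates therefore need not hold for all genes or for the real libraries. Promoters came from RefSeq (GRCh38.p14) and were searched in Python 3.11.15.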

Additional observations from a re-analysis of the deposited data

Results flagged for a closer look

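For 30 of the named genes the response to spermidine differed with bacteria present, by a test of the interaction itself (edgeR, mean over the 3 lines of 36 libraries, adjusted p under 0.05). Some were named for a small p of this interaction and others for a call in the same SPD and NT libraries without bacteria, so their number is not a result. The values are log2 differences of the response, with minus without bacteria. Among genes of oxidative stress defence the response was larger with bacteria for HMOX1 (0.63), TXNRD1 (0.22) and NQO1 (0.16) and smaller for ME1 (-0.14). TXNIP differed by 0.40. Of the polyamine genes AMD1 differed by 0.28, AZIN1 by 0.14, AGMAT by -0.23, SMS by -0.12, CAV1 by -0.29, SLC3A2 by 0.11 and SLC18B1 by -0.19. AMD1 fell with spermidine alone (-0.20) and was at 0.08 with bacteria, and CAV1, SMS, SLC3A2 and SLC18B1 did not pass with spermidine alone.

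Genes of clotting and inflammation that rose with spermidine alone were below NT with bacteria. The differences were -0.68 for PTGS2, -0.30 for F3 and -0.38 for SERPINB2. CSF3, at few counts, differed by -1.20. The integrin chains ITGA3 (-0.28) and ITGB4 (-0.20), SH2D5 (-0.25), the interferon-stimulated gene IFIT2 (-0.39), the clock repressor NR1D1 (-0.23) and the cholesterol enzyme LSS (-0.12) fell further with bacteria. LDHA (-0.20), BNIP3 (-0.20), CA9 (-0.22), FADS1 (-0.12) and FADS2 (-0.20) rose with spermidine alone and had lower values with bacteria. The keratin KRT80 fell without bacteria (-0.12) and rose with them (0.28), a difference of 0.41. BAALC-AS1 (0.44) and PER1 (0.14) fell without bacteria and were near 0 with them.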

How the results depend on the processing

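Over all lines, DESeq2 size factors in edgeR (164 up, 267 down), no filter (150, 228), limma-voom (219, 305) and a mean over 6 groups (171, 232) stayed within 1.5 times the reported 172 and 241. DESeq2 gave 331 and 491, a mean over lines fitted on 36 libraries without bacteria 374 and 524, and leaving out a line 380 and 521 without Ecto, 33 and 45 without Endo and 13 and 15 without VK2. Leaving out libraries gave 11 to 617 up and 4 to 843 down, with 11 and 4 without replicate 1 of every group, 11 and 10 without replicate 2, and 506 and 530 without replicate 3. Within lines, no filter gave 963, 168 and 213 genes for Ecto, Endo and VK2, DESeq2 288, 51 and 77, and a fit of each line alone 2, 140 and 216 from 6 libraries and 59, 34 and 85 from 24. Leaving out libraries gave 11 to 188, 2 to 172 and 12 to 238. The difference between lines was called for 464 genes with no filter, 11 by DESeq2 and 0 to 2 without single libraries. SPD against SPM ranged from 6432 to 6877 genes over settings and from 4436 to 6718 without replicates, SPD with bacteria from 4848 to 5063 and from 2408 to 4559, and the interaction from 1628 to 2069 and from 219 to 1484. HMOX1 stayed between 1.59 and 1.65 on the log2 scale without libraries. None of the 120 named genes reversed where it was called, and 10 of the 91 called passed in all 31 settings. Genes past a fold change of 2, 4 as reported, numbered 14 with no filter, 10 in the 36-library mean, 8 in the mean over 6 groups, and 1 to 11 without libraries. Of the lists, ATF4 targets that fell (8) numbered 14 by DESeq2, 13 in the 36-library mean and 17 without replicate 3 of every group, circadian genes (6) 10 in the 36-library mean, and replication genes that rose (5) 8 in both, 10 without Ecto and 12 without replicate 3. The causes were not tested.

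Correlations of same-numbered NT and SPD deviations over genes were -0.018 to 0.088, and the main tests used no replicate block. Such correlations between single libraries cannot show that the replicates were unpaired, since some genes may still shift together. With a replicate block 118 genes rose and 177 fell, 281 of the 413 calls held, the calls within Ecto, Endo and VK2 cells were 29, 7 and 18, 1 gene differed between lines, and 2 replication genes rose.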

Other observations

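Several further genes changed with spermidine alone. Counts of called members are to be read beside the 0.951% of all genes tested that rose and the 1.33% that fell. A single call in a list is not a result about that family. EPGN, which encodes a ligand of the epidermal growth factor receptor, rose by 0.35 on the log2 scale (SE 0.07, edgeR adjusted p = 0.0068), the 1 gene called of 15 ligands and feedback genes of that receptor. It was 0.47 above NT with spermine and 0.30 above with spermidine and bacteria. SNHG26, a host gene of small nucleolar RNAs, rose by 0.28, 1 of 32 such genes. The stress keratin KRT6C rose by 0.15, a gene that shares most of its sequence with other type II keratins, so that reads may be divided among them. SQSTM1, the autophagy receptor that is also a target of NRF2, rose by 0.09, the only one of 27 autophagy genes called. PAX8, a transcription factor of Müllerian epithelium, fell by 0.22. Among 25 cholesterol synthesis genes LSS, lanosterol synthase, fell by 0.12, and SQLE was at 0.00 without passing.

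Among low-count genes within single lines, seen after the values were known, ENSG00000248596.8 had 0 counts in the 3 VK2 NT libraries and 11, 5 and 8 in the VK2 SPD libraries, while it was read in both groups of Ecto and Endo cells. FAM88E had 22, 10 and 18 counts in NT and 6, 2 and 4 in SPD libraries of VK2 cells. KRT16P2, a keratin pseudogene, had 7, 4 and 6 counts in NT and 0 in each SPD library of Ecto cells.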
